A study of Mus musculus with 4 samples.

Results

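The genes described here are Gm5148, Olfr77, Gm9887 and Rap1b, protein-coding genes whose counts differed between replicate libraries of mouse T-helper 2 cells, together with the genes on the other strand of the first 3 loci, namely Rps23-ps1, Gm7808 and Arf6. These are 7 of the 50600 genes listed. Gm5148, Olfr77, Gm9887 and Rap1b were chosen by the spread of their counts between these libraries, and the partners were chosen because an exon of theirs lies opposite. The data were counts per gene from total RNA sequencing of 4 libraries, all from 1 group of primary T-helper 2 cells of mouse strain C57BL/6NJ with no further treatment or genotype in the labels. T-helper 2 cells are CD4 T cells that make interleukin 4 and drive responses to parasites and allergens. The labels number the libraries as biological replicates 1 to 4, give them the same donor identifier, record sex as not collected and age as unknown, and nothing in them says that the samples came from separate animals. A p-value here measures only how these samples differ, and what part of that is technical was not tested. Replicates 1 and 2 differed from 3 and 4 within this group in genes of the sex chromosomes. Tsix had 3465, 2990, 3 and 4 counts and the Y-linked Ddx3y 0, 0, 7 and 7 in replicates 1 to 4.

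The 4 varying genes have little in common by function. Rap1b is a small GTPase of the Ras family that switches integrins into their adhesive state in T cells, and Arf6 is a small GTPase of the plasma membrane that steers endosomal recycling and actin. Olfr77 belongs to the odorant receptors, G protein-coupled receptors known from olfactory sensory neurons. Gm5148 and Gm9887 are predicted genes whose function is not given here. Rps23-ps1 and Gm7808 are processed pseudogenes, which arise when a messenger RNA is copied back into the genome. Rps23-ps1 is a copy of Rps23, a protein of the small ribosomal subunit. The authors' counts were assigned by strand, with a strand option of 1 per the file headers, so a read opposite an exon belongs to the gene on the other strand.

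The libraries held between 1688658 and 2222583 counts. A count of 0 allows up to 3 counts, which is 1.35 per 1000000 counts of the library (CPM) for the deepest one and 1.78 CPM for the shallowest. No pair of libraries agreed within sampling noise, with a chi-square per degree of freedom of 2.08 or more. All 10 T cell markers had counts, summing to 657 to 844 CPM per library. Of 8 Th2 markers, 5 had counts, while Il5, Il13 and Il1rl1 were at 0 in every library, and the 8 together gave 148 to 197 CPM. Of 4 markers each, the B cell list had 1 with a count, with Cd79b and Ms4a1 at 0, and the macrophage list 2, summing to 443 to 548 CPM, with Lyz2 and Adgre1 at 0. Foxp3, a marker of regulatory T cells looked up after its value was known, lay at 386 to 425 CPM. Genes with no exon opposite another gene held 6.70% to 9.93% of the counts of a library. Whether this distribution follows from the strand option or from the RNA of the cells was not tested. A low or high value of any gene with an opposite exon carries that uncertainty. In these bulk samples, fewer cells of a type and less RNA per cell cannot be told apart.

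The sequences at the overlaps show what a gene shares with its partner. On build mm10, Gm5148 (ENSMUSG00000058174.7) lies on chr3:37714190-37724490 on the minus strand, with 5 exons of 3901 bases in all. Rps23-ps1 (ENSMUSG00000100755.1) is a single exon of 425 bases at chr3:37714740-37715164 on the plus strand. It lies opposite 396 bases of exon 5 of Gm5148, and these hold 330 of the 462 coding bases of Gm5148, or 71.4%. Over its 425 bases Rps23-ps1 was identical to the coding sequence of Rps23 (chr13:90923131-90924942, plus strand), with no differing base. The same 90 bases, coding positions 50 to 139 of Rps23, are given from GENCODE M21 transcripts for Rps23, for Rps23-ps1, for another copy, Rps23-ps2 (chr8:3583799-3584230, minus strand), and as the strand that is coding sequence in Gm5148. The capital marks a base that differs from Rps23.
Gm5148: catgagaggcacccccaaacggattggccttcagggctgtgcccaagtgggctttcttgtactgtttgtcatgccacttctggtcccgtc
Rps23-ps1: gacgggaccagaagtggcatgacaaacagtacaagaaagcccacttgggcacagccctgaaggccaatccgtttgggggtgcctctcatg
Rps23: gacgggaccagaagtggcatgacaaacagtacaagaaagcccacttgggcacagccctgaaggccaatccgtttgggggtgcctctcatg
Rps23-ps2: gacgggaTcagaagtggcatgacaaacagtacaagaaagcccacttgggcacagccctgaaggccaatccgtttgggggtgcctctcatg

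Olfr77 (ENSMUSG00000051118.9) lies on chr9:19916865-19929124 on the plus strand, with 3 exons of 9649 bases. Gm7808 (ENSMUSG00000091460.2) is a single exon of 387 bases at chr9:19927896-19928282 on the minus strand and lies wholly opposite exon 3 of Olfr77. That exon has 8930 bases, and Gm7808 starts 6750 bases past the end of the 936 coding bases of Olfr77, so the overlap falls in the 3′ UTR and covers 0 coding bases.

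Gm9887 (ENSMUSG00000052673.1) is a single exon of 624 bases on chr12:69371835-69372458, minus strand, and meets Arf6 head to head. Arf6 (ENSMUSG00000044147.7) lies on chr12:69372150-69375979, plus strand, with 2 exons of 3730 bases. Their exons overlap by 209 bases, all coding in Gm9887 and none coding in Arf6. Gm9887 runs on for 315 bases before the start of Arf6, and its own start lies 308 bases inside Arf6. The 150 bases just before the start of Arf6, chr12:69372000-69372149, are therefore both Arf6 promoter sequence and Gm9887 exon. They are shown on the Gm9887 strand from GENCODE M21, with CG pairs in capitals, because they hold 24 such pairs. Among 32851 promoter windows of RefSeq genes, taken over the same 150 bases before the start, the median was 4 CG pairs and 2.6% held as many. The GC content of the 150 bases shown was 72.7%.
Gm9887: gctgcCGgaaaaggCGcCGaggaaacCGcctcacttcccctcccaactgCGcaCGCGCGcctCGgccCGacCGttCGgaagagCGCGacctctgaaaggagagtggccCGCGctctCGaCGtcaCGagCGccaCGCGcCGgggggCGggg

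Rap1b (ENSMUSG00000052681.8) lies on chr10:117813871-117846035, minus strand, with 9 exons of 2884 bases. No exon lies opposite it in the deposited annotation or in release M21, which sets it apart from the other members. No gene span lies opposite it in the deposited annotation either. Its closest relative is Rap1a (chr3:105727267-105801336, minus strand), which acts on the same integrin pathway. The first 150 coding bases of both are shown from GENCODE M21, with capitals where they differ.
Rap1b: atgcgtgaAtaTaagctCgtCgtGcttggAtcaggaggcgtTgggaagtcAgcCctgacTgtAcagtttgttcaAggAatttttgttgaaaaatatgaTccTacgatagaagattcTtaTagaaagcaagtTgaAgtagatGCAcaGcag
Rap1a: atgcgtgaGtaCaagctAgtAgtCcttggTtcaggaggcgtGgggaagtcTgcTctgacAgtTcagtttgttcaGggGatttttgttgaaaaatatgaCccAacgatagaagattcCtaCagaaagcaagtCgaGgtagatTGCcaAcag
Over 555 coding bases, stop codon included, Rap1b and Rap1a were identical at 453, 81.62%, and the longest identical run was 20 bases. No stretch of a Rap1b transcript of 50 bases or more had a copy at 98% identity or above in another transcript.

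**Figure D1:**
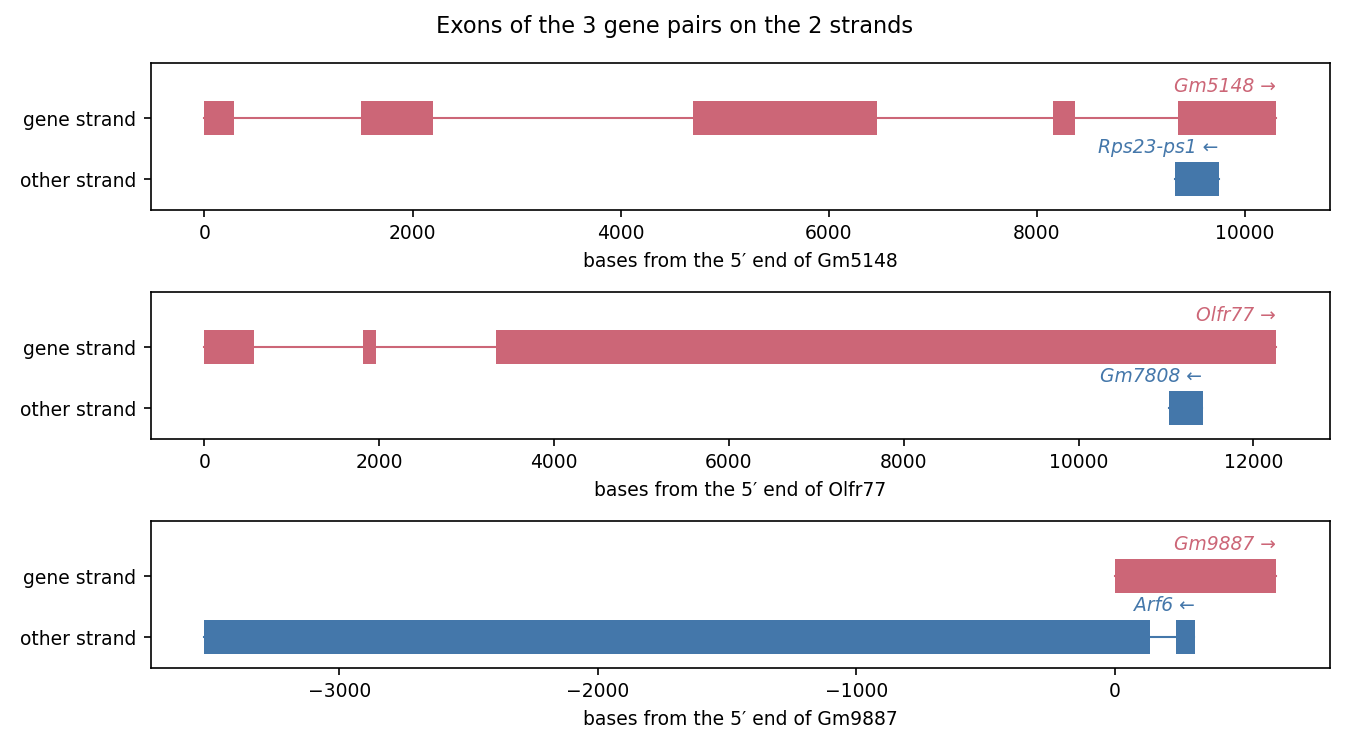
Exons (boxes) and gene spans (lines) of Gm5148 over Rps23-ps1, Olfr77 over Gm7808 and Gm9887 over Arf6, drawn to scale along the distance in bases from the 5′ end of the upper gene, with arrows for the direction of transcription. Rps23-ps1 lies opposite the last exon of Gm5148, Gm7808 lies inside the last exon of Olfr77, and Gm9887 overlaps the start of Arf6.

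The first question was how each varying gene behaved in each library. Gm5148 had 990, 1157, 2966 and 1994 counts in replicates 1, 2, 3 and 4, or 586, 679, 1334 and 1060 CPM. Replicates 3 and 4 were high and replicates 1 and 2 low, and the 95% exact Poisson intervals of the 4 libraries did not overlap. The mean was 915 ± 347 CPM (SD, n = 4), and the highest library was 2.28-fold above the lowest. All such intervals cover counting error only.

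Olfr77 had 127, 61, 27 and 15 counts in replicates 1 to 4, or 75.2, 35.8, 12.1 and 7.97 CPM. Here replicates 1 and 2 were high and replicates 3 and 4 low, and only the intervals of replicates 3 and 4 overlapped. The mean was 32.8 ± 30.8 CPM (SD, n = 4), with the highest library 9.43-fold above the lowest, the widest ratio among the 4 varying genes.

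Gm9887 had 605, 322, 665 and 1121 counts, or 358, 189, 299 and 596 CPM in replicates 1 to 4. Replicate 4 was highest and replicate 2 lowest, and no intervals overlapped. The mean was 361 ± 172 CPM (SD, n = 4) and the ratio of highest to lowest library 3.16.

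Rap1b had 99, 65, 142 and 285 counts, or 58.6, 38.1, 63.9 and 151 CPM. Replicate 4 stood above the others, with an interval of 134 to 170 CPM, while the intervals of replicates 1 and 3 overlapped and so did those of replicates 1 and 2. The mean was 78.0 ± 50.2 CPM (SD, n = 4) and the ratio 3.97. For comparison, the median ratio of highest to lowest library was 1.5 over the 4918 genes that passed the filter on low counts.

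Replicate 4 was thus the highest library for Gm9887 and Rap1b, replicate 3 for Gm5148 and replicate 1 for Olfr77. The highest and the lowest library of each of these 4 genes stayed the same with TMM scaling, with DESeq2 size factors and with totals that leave out CT010467.1, an rRNA gene. Its share of counts was 1.29%, 5.05%, 9.40% and 1.62% in replicates 1 to 4, so that it was highest in replicate 3 as Gm5148 was. In totals without it Gm5148 had a ratio of 2.48. Although all 4 carry the same donor identifier, libraries 1 and 2 differed from 3 and 4 in genes of the sex chromosomes. Tsix, transcribed from the X chromosome across Xist, had 3465, 2990, 3 and 4 counts, Xist had 71, 89, 2 and 8, and the Y-linked Ddx3y had 0, 0, 7 and 7. Tsix and Xist lie on opposite strands, so which of them was higher carries the uncertainty of the strand option. Gm5148 was higher and Olfr77 lower in the libraries with Ddx3y counts, and the part of the sex chromosome difference in either was not tested. The share of counts in genes with no opposite exon was 8.31%, 7.75%, 6.70% and 9.93%, highest in replicate 4 as Gm9887 and Rap1b were, and its part was not tested.

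**Figure D2:**
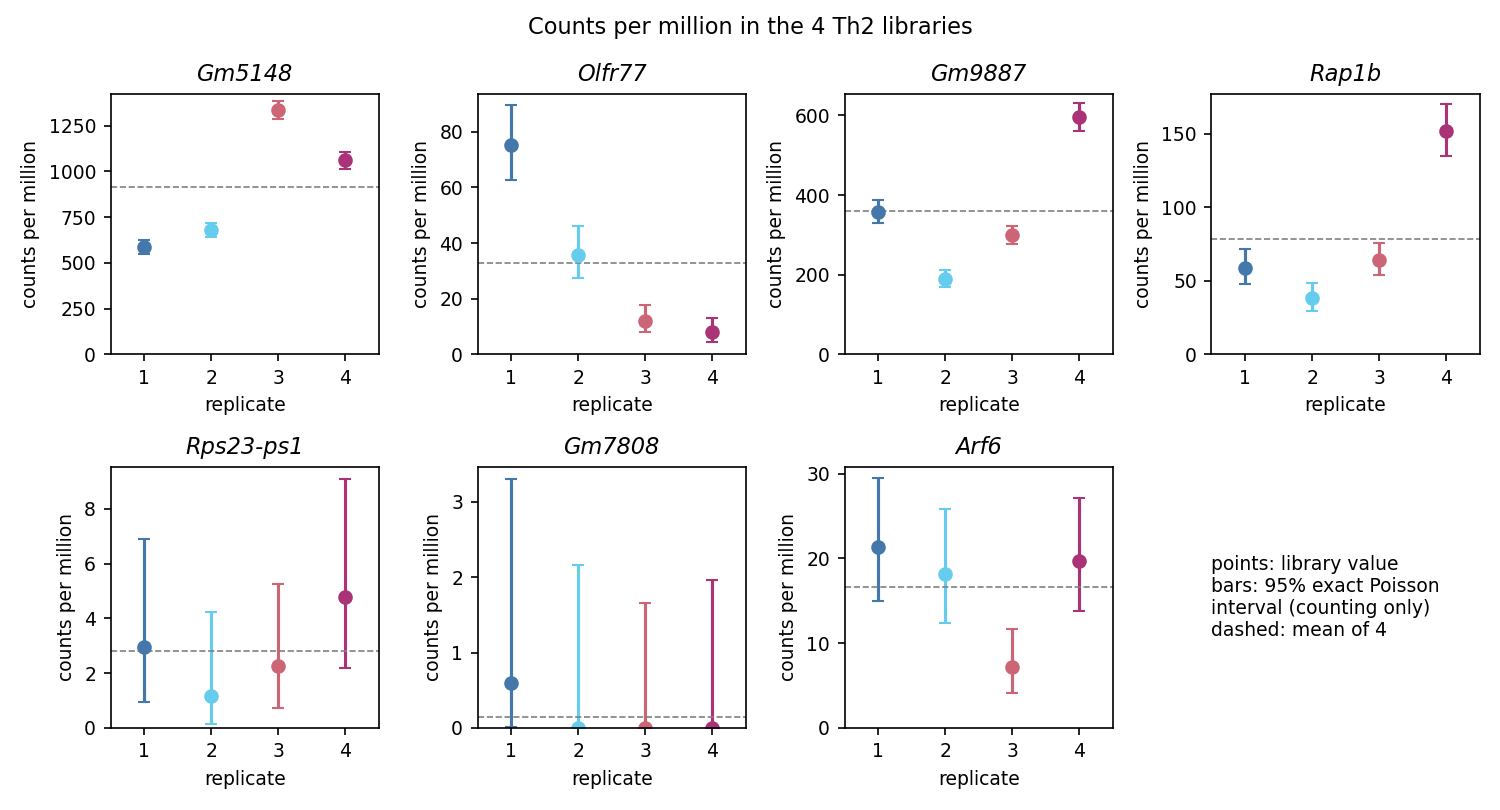
CPM of the 7 genes in replicates 1 to 4, with 95% exact Poisson intervals for counting error (bars) and the mean of 4 libraries (dashed), each panel on its own linear axis from 0. Replicate 3 is highest for Gm5148, replicate 1 for Olfr77 and replicate 4 for Gm9887 and Rap1b, while Rps23-ps1 and Gm7808 stay under 5 CPM.

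The spread was measured with edgeR as the variance between libraries in units of that usual for genes of like abundance. This ratio was 20.7 for Gm5148, 17.5 for Olfr77, 17.4 for Gm9887 and 11.2 for Rap1b, which placed them 4, 6, 7 and 13 among 4918 genes in order of spread. Of the 5 members with enough counts for the test, these 4 passed at an adjusted p under 0.05, as they were chosen to. Over all genes tested 22, or 0.447%, passed. With library totals in place of TMM scaling none of the 4 passed, without replicate 4 only Gm5148 did, and without replicate 1, 2 or 3 in turn Olfr77, Gm9887 or Gm5148 did not. Just inside the threshold stood Gm17092 with a ratio of 8.36 and 2339, 2157, 1893 and 3564 counts in replicates 1 to 4. Just outside it stood E130317F20Rik with a ratio of 8.06 and 2102, 2395, 4423 and 3480 counts. Of the 22 genes, 18 have an exon opposite another gene and 4 have none, while 3162 of the 4918 tested, or 64.3%, have one. A ratio of highest to lowest library at or above that of Gm5148 was found in 13% of genes tested, and one at or above that of Rap1b in 0.488%.

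The second question was whether the partners on the other strand varied too. Rps23-ps1 had 5, 2, 5 and 9 counts in replicates 1 to 4, and all its intervals overlapped. Gm7808 had 1, 0, 0 and 0 counts, so that replicate 1 was the only library with a count. Neither passed the filter on low counts. Arf6 had 36, 31, 16 and 37 counts, or 21.3, 18.2, 7.20 and 19.7 CPM, with a mean of 16.6 ± 6.39 CPM (SD, n = 4). Replicate 3 was low, its interval of 4.11 to 11.7 CPM lying below those of the other libraries, which overlapped each other. The variance ratio of Arf6 was 1.97, rank 688, and did not pass the edgeR test (adjusted p = 0.961).

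The counts of Rps23-ps1 and Gm7808 were too low to order the libraries. Gm9887 was highest in replicate 4 and lowest in replicate 2, whereas for Arf6 replicate 3 alone stood apart, as the lowest. Arf6 held 5.62% of the counts of its pair in replicate 1 with 95% Wilson bounds of 4.08% and 7.68%. Its share was 8.78% in replicate 2, bounded by 6.26% and 12.2%. In replicate 3 it held 2.35%, with bounds of 1.45% and 3.78%, and in replicate 4 it held 3.20%, with bounds of 2.33% and 4.37%. The share in replicate 2 was above those in replicates 3 and 4, and its interval overlapped that of replicate 1. Rps23-ps1 held from 0.168% to 0.503% of its pair's counts. Gm7808 held 0.781% in replicate 1 (0.138% to 4.29%) and 0 of 61, 27 and 15 counts in the others, with upper bounds of 5.92%, 12.5% and 20.4%.

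Levels of different genes were compared per length, in TPM, for which each count was divided by the exon length the authors listed and the results were scaled to sum to 1000000 in each library. Gm5148 averaged 346 ± 134 TPM and Rps23-ps1 9.64 ± 5.21 TPM (SD, n = 4). Olfr77 averaged 4.96 ± 4.61 TPM and Gm7808 0.553 ± 1.11 TPM (SD, n = 4). Gm9887 averaged 848 ± 402 TPM and Arf6 6.52 ± 2.47 TPM (SD, n = 4). With the strand option as deposited, the varying gene of each pair thus had the higher TPM, in 4 of 4 libraries. With all counts of a pair exchanged between its genes, a setting chosen after seeing the data, the order turns in all 3 pairs.

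The difference in log2(TPM + 1), gene minus partner, was 5.08 ± 0.79 for Gm5148 minus Rps23-ps1, 1.82 ± 0.66 for Olfr77 minus Gm7808 and 6.78 ± 0.81 for Gm9887 minus Arf6 (SD, n = 4). With the counts exchanged, it was -10.55, -6.41 and -1.83 for the same pairs. An exact sign-flip test over libraries, two-sided, returned p = 0.13 for each, also after Benjamini-Hochberg adjustment over the 3 pairs, which is the smallest p that 4 libraries allow, so none could pass 0.05. The pseudocount of 1 makes such differences too small for low genes. Pooled over libraries and per 1000 exon bases, Gm5148 had 36.9 times the counts of Rps23-ps1 (95% exact interval 24.1 to 59.6) and Gm9887 had 135 times those of Arf6 (113 to 164). These intervals cover counting error in the pooled counts and not the spread between libraries, in which the ratio was 21.6, 63.0, 64.6 and 24.1 for Gm5148 and 100.5, 62.1, 248 and 181 for Gm9887 in replicates 1 to 4. With the counts exchanged, Rps23-ps1 would have 3106 times the counts of Gm5148 per length and Arf6 3.78 times those of Gm9887. For Olfr77 over Gm7808 the ratio was 9.22, with an interval from 1.64 to 366, since Gm7808 rests on 1 count. All 425 bases of Rps23-ps1 and all 387 of Gm7808 have close copies in other transcripts. In the transcripts of Gm5148 and Olfr77 at most 39.1% and 5.2% of bases do, and in those of Gm9887 and Arf6 0%. The Arf6 transcript searched has 1534 bases, against 3730 exon bases in the counts, so not all counted bases of Arf6 were checked. The counting header records no option for reads that map to several places. The part of such reads in the ratios for Gm5148 and Olfr77 was not tested.

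**Figure D3:**
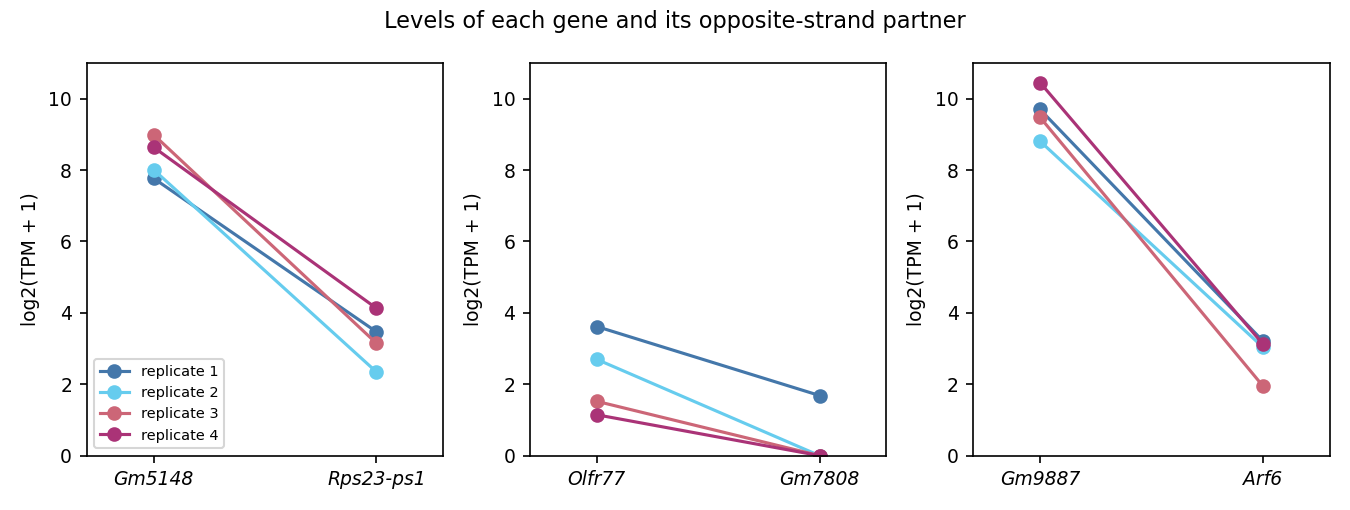
Levels on the log2(TPM + 1) scale of each varying gene (left) and its partner on the other strand (right), with a line per library coloured by replicate. With the strand option as deposited, all 12 lines fall from left to right, from mean differences of 6.78 for Gm9887 and Arf6 down to 1.82 for Olfr77 and Gm7808.

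In order of mean level, Gm9887 came first and Gm5148 next, with library values of 448 to 1401 and 217 to 509 TPM. These ranges overlapped, while within each of the 4 libraries Gm9887 was above Gm5148. Rap1b, at 39.7 ± 25.5 TPM (SD, n = 4), lay apart from Gm5148 above it and Rps23-ps1 below it, with libraries from 19.6 to 77.1 TPM. Rps23-ps1, Arf6 and Olfr77 overlapped one another. The median over the genes tested was 19.0 TPM, so that Gm9887, Gm5148 and Rap1b stood above it and Arf6 and Olfr77 below. By mean TPM these ranked 211, 483, 1786, 3608 and 3932 of 4918.

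The relatives of Rps23-ps1 were examined next. It aligned to 13 genes on the same strand, at 90.71% to 100% identity. Of these 12 are in the deposited list, and 10 had 0 counts in every library. Rps23 itself, which has no exon opposite it, had 69, 48, 53 and 83 counts, or 66.5 ± 18.4 TPM (SD, n = 4), and did not pass the spread test (edgeR adjusted p = 0.991). By CPM, Rps23 was lowest in replicate 3, at 23.8, the library in which Gm5148 was highest. The counting header records no option for reads that map to several places, and a read that lies wholly within the shared bases cannot be told apart between these copies.

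The reverse complement of the same sequence is present in exons of 3 genes. Gm5148 had 7107 counts over the 4 libraries and 346 TPM. C330021F23Rik, opposite Rps23-ps2 with 99.5% identity, had 1, 2, 2 and 0 counts and 0.354 TPM. Gm2174, opposite the copy Gm14633 with 97.73% identity, had 3, 3, 4 and 3 counts and 6.34 TPM. Counts of the size seen in Gm5148 were absent from the other 2 genes with nearly the same bases. These are counts of whole genes. The aligned stretch differs from Rps23-ps1 at 2 bases in C330021F23Rik and 9 in Gm2174, but at 0 in Gm5148. Where reads of this sequence were placed was not tested, so nothing is read from the contrast. The overlap with Rps23-ps1 is 396 of 3901 exon bases in Gm5148, while Gm2174 has 402 exon bases in all. Where in Gm5148 its reads lie was not tested. Of the 4 annotated transcripts of Gm5148, 3 have copies elsewhere at 98% identity or above for 33.6% to 39.1% of their bases, and the other has 0%. The counts are per gene, so it was not tested which of these transcripts they came from.

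**Figure D4:**
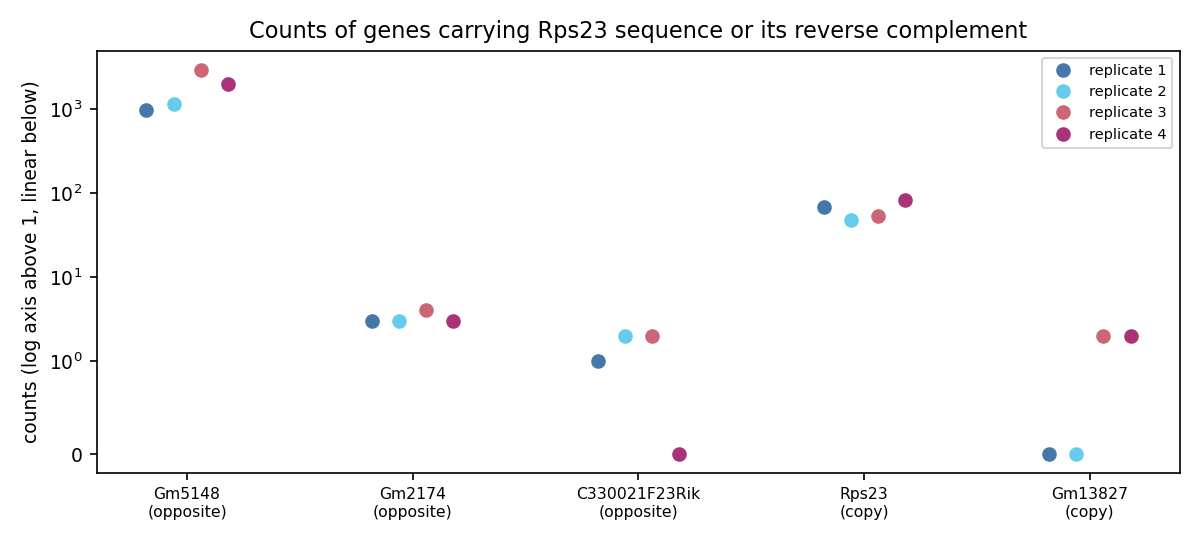
Counts in replicates 1 to 4 of the listed genes with a count that carry Rps23 sequence (copy) or its reverse complement (opposite), on an axis that is logarithmic above 1 count and linear below. Gm5148 reaches 990 to 2966 counts, Rps23 48 to 83, and Gm2174, C330021F23Rik and Gm13827 stay at 4 or fewer. Rps23-ps1, the query itself, is not drawn.

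Olfr77 was the single gene found to hold the reverse complement of Gm7808, over all 387 bases. Of the 2 annotated transcripts of Olfr77, the longer, of 9649 bases, has copies elsewhere for 5.2% of its bases and the shorter for 0%.

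Genes opposite a processed pseudogene by 100 exon bases or more were taken as the setting for Gm5148 and Olfr77. There were 186, of which 116 had a count, 70 had none and 38 passed the filter on low counts. Their median level was 0.226 TPM, and Gm5148 ranked 2 among the 186 and Olfr77 36. The gene above Gm5148 was Gm26825, at 505 TPM, with 1487, 1292, 1293 and 1070 counts in replicates 1 to 4. Of the 38, 3 passed the spread test, namely Gm5148, Olfr77 and C230062I16Rik, and 2 of these are genes chosen for that spread, so nothing is read from the count.

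Rap1b stood in a different setting, that of protein-coding genes with no exon opposite. Of 16963 such genes listed, 8454 had a count and 1570 were tested, with a median level of 6.65 TPM. Rap1b ranked 115 among the 1570 by mean TPM and 3 by spread. The other 2 that passed were Ddx1, an RNA helicase, and mt-Nd4, a mitochondrial subunit of respiratory complex I. Rap1b averaged 39.7 TPM, against 3.51 ± 1.48 TPM (SD, n = 4) for Rap1a, which had 12, 8, 8 and 18 counts in replicates 1 to 4. Gm9392, a processed pseudogene 80.87% identical to Rap1b, had 19, 26, 31 and 29 counts. Over its 554 exon bases that was a mean of 37.1 TPM, near the mean of Rap1b. The pseudogenes Gm15382 and Rap1a-ps2 were at 0 in every library.

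Genes around each locus were examined for a like spread. The nearest genes with a count on either side of Gm5148 were Spry1, an inhibitor of growth factor signalling, with 14, 16, 6 and 28 counts in replicates 1 to 4, and Gm42921, with 13, 17, 20 and 19. Spry1 was lowest in replicate 3, where Gm5148 was highest. Around Olfr77 the nearest were Olfr856-ps1, 258218 bases away with 5, 9, 2 and 2 counts, and Zfp560, 416012 bases away with 0, 0, 1 and 2. Both are at counts too low to show the ratio of Olfr77.

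Next to Gm9887 lies Nemf, a factor of ribosome quality control, 14659 bases away with 76, 100, 104 and 102 counts. On the other side Vcpkmt had 3, 1, 4 and 5. By CPM Nemf lay at 45.0, 58.6, 46.8 and 54.2 in replicates 1 to 4, so that replicate 4 did not stand apart as it did for Gm9887. Rap1b is flanked by Nup107, a nuclear pore protein, with 20, 11, 19 and 23 counts, and by Gm32552 with 6, 2, 4 and 4. Nup107 lay at 11.8, 6.45, 8.55 and 12.2 CPM in replicates 1 to 4, so that replicate 4 did not stand apart from replicate 1 as it did for Rap1b.

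The genes most like each varying gene across the 4 libraries were ranked by the root mean square difference of centred log2 TMM-scaled CPM. For Gm5148 these were Cep85, a centrosomal protein, at 0.068, Tmem91 at 0.095 and Rnft1 at 0.10. Cep85 had 29, 33, 79 and 56 counts and has no exon opposite. In all 73 genes lay within 0.25 of Gm5148. For Gm9887 they were Mepce, which caps the 7SK RNA, at 0.051, Gm10209 at 0.055 and B3gnt3, a glycosyltransferase, at 0.096, with 80 genes within 0.25. Mepce had 20, 10, 20 and 38 counts.

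For Rap1b the nearest was Hnrnpab, an RNA-binding protein, at 0.18, with 470, 319, 639 and 1008 counts, followed by Zfp622 at 0.19 and Gm22877 at 0.19. In all 15 genes lay within 0.25 of Rap1b. No gene lay within 0.25 of Olfr77. The nearest were C230062I16Rik at 0.49, Rps6kb2 at 0.74 and Slc5a10 at 0.74. C230062I16Rik had 220, 153, 107 and 67 counts in replicates 1 to 4, the same order of libraries as Olfr77. With 4 libraries, likeness of this kind is a description of these samples.

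**Figure D5:**
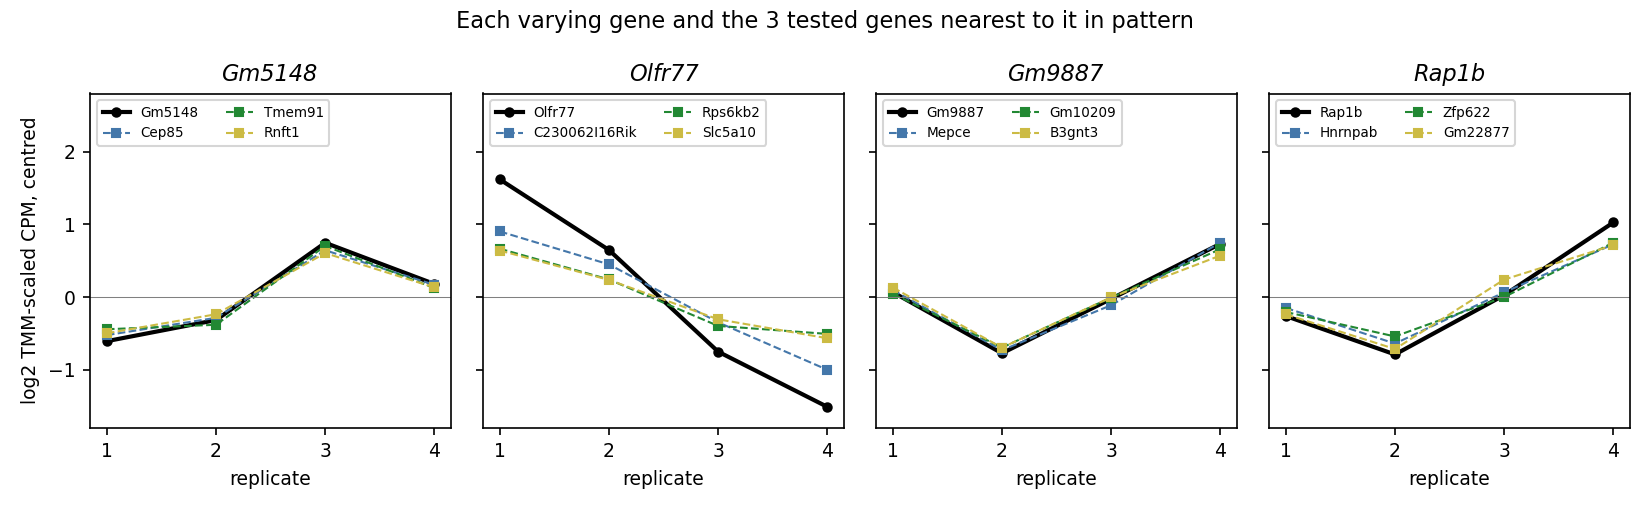
Centred log2 TMM-scaled CPM in replicates 1 to 4 for each varying gene (black) and the 3 tested genes nearest to it. The genes near Gm5148 peak in replicate 3, those near Gm9887 and Rap1b in replicate 4, and those near Olfr77 span less than Olfr77 itself, which lies between 1.62 in replicate 1 and -1.51 in replicate 4.

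Few genes of the GTPase pathways had enough counts for the spread test. Among 18 relatives and regulators of Rap1, 15 had a count and 3 were tested. Among 12 Rap1 effectors and integrin adhesion genes, all 12 had a count and 7 were tested. Of these 10 tested genes, 0 passed with edgeR, 0 had an unadjusted p under 0.05, and 0 passed with DESeq2 or limma. Over all 4918 genes 0.447% passed with edgeR and 281 had such an unadjusted p, while 22 passed with DESeq2 and 1 with limma. These counts do not set the lists apart. With so few genes passing limma at all, 0 by limma says little for these lists or for those below. Rassf5, the effector that carries active Rap1 to the integrin LFA-1, had 93, 66, 106 and 96 counts, and Tln1, talin, which opens integrins, had 105, 104, 97 and 127. Itgb1, the integrin beta 1 chain, had 82, 53, 105 and 120 counts, and Fermt3, kindlin-3, had 58, 34, 42 and 70. None of these 4 passed the spread test.

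On the Arf side, 8 relatives of Arf6, 12 exchange factors, 14 GTPase-activating proteins and 9 effectors were examined, of which 2, 2, 3 and 4 were tested. Again 0 passed with edgeR, DESeq2 or limma, and 0 had an unadjusted p under 0.05, which with so few genes tested is near the share over all genes. Arf6, at 6.52 TPM, lay below Arf4 at 70.9 ± 10.04 TPM and Arf1 at 29.0 ± 5.31 TPM, near Arf5 at 5.67 ± 1.60 TPM and Arf3 at 3.58 ± 1.89 TPM (SD, n = 4), and above the median of the 8 relatives, 3.25 TPM. Psd, an exchange factor for Arf6, averaged 247 ± 29.6 TPM and lies opposite Nfkb2, and Mapk8ip3, an Arf6 effector, averaged 179 ± 7.61 TPM and lies opposite Mrps34 and Nme3.

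Of 33 proteins of the small ribosomal subunit, the complex to which Rps23 belongs, all had a count and 32 were tested. None passed with edgeR, DESeq2 or limma, and 11 had an unadjusted p under 0.05, a p reached by 5.71% of all genes tested. Their summed level was 2924, 2559, 1914 and 3344 CPM in replicates 1 to 4, lowest in replicate 3 and highest in replicate 4. Gm5148 was highest where this sum was lowest, and Gm9887 and Rap1b where it was highest, and the part of that sum in their spread was not tested.

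Odorant receptor genes other than Olfr77 numbered 1404, of which 1359 were at 0 in every library and 45 had a count. Their summed level was 48.6, 47.5, 54.4 and 60.1 CPM in replicates 1 to 4, lowest in replicate 2 and highest in replicate 4. Olfr77 alone had 75.2 CPM in replicate 1, above that sum, and 7.97 CPM in replicate 4. These CPM are not scaled to length, and Olfr77 has 9649 exon bases. Per length it had 11.3 TPM in replicate 1 and averaged 4.96 TPM. Only Olfr543 and Olfr99 passed the filter among the other receptors, at 11.8 ± 1.89 and 8.80 ± 1.39 TPM (SD, n = 4), both above the mean of Olfr77. Neither passed with edgeR, DESeq2 or limma, and neither had an unadjusted p under 0.05. Among markers of olfactory neurons, Omp and Cnga2, the defining ones, were at 0 in every library, while Gnal and Adcy3 together gave 427 to 489 CPM.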

How the data were processed

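The labels call the assay total RNA-seq and link a library protocol whose name mentions poly(A)+ RNA. The authors deposited raw counts per gene, made with featureCounts 1.4.6-p4 on mm10 and GENCODE release M13 with strand option 1, per the file headers. An aligner was not given in the sources used here. No normalisation had been applied to the deposited counts. CPM and TPM were computed from the counts, library totals and deposited exon lengths, and symbols came from GENCODE M21 for 99.6% of 50600 genes; the rest took 0.56% of counts.

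The members and lists were chosen with earlier results of these data known. Spread between the 4 libraries (1 group) was tested with edgeR 4.0.16 by fitting an intercept to TMM-scaled counts after filterByExpr, with a robust prior, and taking a one-sided p for the ratio of each gene's quasi-dispersion to the trend, with Benjamini-Hochberg adjustment at 0.05. Pair differences were tested with an exact sign-flip test on log2(TPM + 1). Library totals of 1688658 to 2222583 limit the precision, as the Poisson and Wilson intervals show. Overlaps came from bedtools 2.31.1 and copies from blastn 2.17.0 against M21 transcripts. DESeq2 1.42.0, limma 3.58.1, other scalings, filters and leaving out each replicate served as alternatives. R 4.3.3 and Python 3.11.15 were used.

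Named genes were the members, their opposite genes and copies, up to 4 genes per list by mean CPM, the 3 nearest in pattern and the nearest gene with a count on each side. Gm26825 and the other genes of the pseudogene and no-opposite-exon settings, CT010467.1, Foxp3, Tsix, Xist and Ddx3y were named after their values were seen, as were Mif and its copies. Relatives of Gm7808 are not reported here.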

Additional observations from a re-analysis of the deposited data

Results flagged for a closer look

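In 10 sets of 4 library values, those of the 7 genes and of the 3 pair shares, the extreme library was set against the other 3 by Dixon's criterion, for which chance gives about 1 set in 20. Gm7808 had 0.592 CPM in replicate 1 and 0 in the others, and its share of the counts of its pair with Olfr77 was 0.781% in replicate 1 and 0% in the others. Both rest on the same single count, and with values of 1, 0, 0 and 0 counts the criterion is met by construction. The counting intervals of all 4 libraries overlapped, so that Gm7808 is not shown to differ between them.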

How the results depend on the processing

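The number of genes whose spread passed depended on the processing. It was 22 by TMM, 2 with library totals only and 14 with CT010467.1 left out of totals and TMM. With every gene with a count it was 56, with a mean count of 10 it was 44 and with no robust prior 9. It was 1 with limma, which was run on log2(CPM + 1) from library totals without TMM. The limma setting thus changed the scaling as well as the tool. Of the 4 varying members, all passed with DESeq2 size factors, as DESeq2 dispersion outliers, without CT010467.1 and under both other filters, 3 with no robust prior (not Rap1b), and 0 with library totals only or limma. Leaving out 1 replicate gave 11 to 21 genes. Olfr77 did not pass without replicate 1, Gm9887 without replicate 2 and Gm5148 without replicate 3, and Gm5148 alone passed without replicate 4. The cause was not tested. Among genes opposite a processed pseudogene, counted in a way chosen after seeing the data, 3 passed in the main setting, 0 with library totals only or limma and 1 without replicate 1 or replicate 4.

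The pair differences kept their direction under the other pseudocount, without length scaling and with each replicate left out. Gm5148 minus Rps23-ps1 was 5.24 with a pseudocount of 0.1 and 7.93 on log2(CPM + 1), Olfr77 minus Gm7808 4.03 and 4.42, and Gm9887 minus Arf6 6.99 and 4.34. With all counts of each pair exchanged between its genes, a setting chosen after seeing the data, they turned to -10.55, -6.41 and -1.83. The log2 ratio of highest to lowest library was 0.92 for Gm9887, 0.74 for Rap1b, 2.63 for Olfr77 and 1.34 for Rps23-ps1 without replicate 4, and 0.23 for Arf6 without replicate 3. Without replicate 2 it was 0.99 for Gm9887, 1.37 for Rap1b and 1.09 for Rps23-ps1. Without replicate 1 it was 2.17 for Olfr77, whose mean was then 18.6 CPM. No paired analysis was possible because the libraries form 1 group with no other group to pair by replicate number. The sign-flip test compares genes within a library.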

Other observations

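C230062I16Rik, a non-coding transcript on chromosome 7, is the gene nearest to Olfr77 in pattern and was singled out after its values were seen. It has exons opposite both Zfp74 and Gm10169. Gm10169 is a processed pseudogene that matched Mif, the gene of the cytokine macrophage migration inhibitory factor, at 345 of 348 bases. C230062I16Rik had 220, 153, 107 and 67 counts in replicates 1 to 4, and averaged 30.7 TPM. Mif itself had 32, 23, 17 and 40 counts, highest in replicate 4, where C230062I16Rik was lowest. Gm16379, another copy at 97.99% identity, had 11, 4, 9 and 11 counts, and the copies Mif-ps3, Gm8762 and Gm5228 were at 0 in every library.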
